A study of Sus scrofa with 24 samples.

Results

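The 9 genes followed here belong to the lipid droplet, and their expression was measured in the hippocampus of neonatal piglets. They are the droplet coat genes PLIN2, PLIN3, PLIN4 and PLIN5, the triglyceride-forming enzymes DGAT1 and DGAT2, the lipases PNPLA2 and LIPE, and ABHD5, the protein that activates PNPLA2. All 9 were found by symbol among the 38882 genes in the count files, and 8 of them were among the 16326 genes abundant enough to be tested. The family was chosen by measured values, because PLIN4 had opposite differences between small and normal-sized piglets on the 2 diets. The values of PLIN4 are therefore a description, with no p value, and its fitted estimates and their errors support nothing.

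Hippocampi of 24 piglets (PIC Camborough dams and PIC 359 sires) were taken at 14 days of age for sequencing of polyadenylated RNA, with 6 piglets in each of 4 groups. Small for gestational age (SGA) piglets had a low birth weight although they were born at full term, and appropriate for gestational age (AGA) piglets had a normal one. The control (CON) formula supplied all of its fat as triglyceride-rich oils, whereas in the hydrolyzed fat (HF) formula part of that oil was replaced by soy free fatty acids, monoacylglycerol palmitate and soy lecithin, with cholesterol added. SGA and AGA piglets came as sex-matched pairs, 1 litter each and both on 1 formula, which gave 6 litters per diet, and replicates 1 to 3 and 4 to 6 of each group belonged to separate cohorts. All 24 piglets were naturally delivered, received colostrum and were then caged individually and fed formula. Low birth weight arose naturally and its cause was not controlled. Reads counted on genes ranged from 6017336 to 9284355 per library, so that 3 reads corresponded to 0.320 to 0.494 CPM (reads of a gene per 1000000 reads in its library). CPM were scaled by TMM, a normalization that aligns library sizes on genes that differ little between libraries.

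A lipid droplet is a core of triglyceride and cholesterol ester enclosed by a single phospholipid layer. Perilipins sit on this layer and control the access of lipases to the core. DGAT1 and DGAT2 add the last fatty acid to a diacylglycerol to form triglyceride, PNPLA2 (also called adipose triglyceride lipase) removes the first fatty acid with the help of ABHD5, and LIPE (hormone-sensitive lipase) acts mainly on diacylglycerol and on cholesterol esters. In the brain, droplets are found mostly in glia and ependymal cells, and neurons keep few of them.

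In the Sscrofa10.2 genome, PLIN4 (gene 100524667) lies on chromosome 2 from 74811668 to 74824921 on the plus strand, with 8 exons. PLIN5 (gene 100142670) is its neighbour on the same strand, from 74797979 to 74806072, and 5595 bases separate the genes. PNPLA2 is on chromosome 2 as well, from 156833 to 161266. PLIN2 (gene 397402) is on chromosome 1 from 227334036 to 227357123, and PLIN3 (gene 595103) is on an unplaced scaffold. DGAT1 is on chromosome 4 from 599685 to 609272, DGAT2 on chromosome 9 from 11160734 to 11176926, LIPE on chromosome 6 from 45443742 to 45454621 and ABHD5 on chromosome 13 from 29834219 to 29881698.

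Per length of annotated exon, PNPLA2 had the highest level of the family and PLIN4 the lowest of the 8 genes other than DGAT2. PNPLA2 had 47.9 ± 8.21 CPM per kb (SD, n = 24 libraries), and it was above every other member in all 24 libraries. DGAT1 followed with 18.9 ± 2.58 and PLIN3 with 15.7 ± 2.45 CPM per kb. DGAT1 exceeded PLIN3 in 21 of 24 libraries, but their ranges overlapped. LIPE had 5.19 ± 1.04 CPM per kb. PLIN5 at 2.07 ± 0.738 and ABHD5 at 1.69 ± 0.433 CPM per kb were not separated beyond their spread, and PLIN5 was the higher in 17 libraries. PLIN2 had 0.620 ± 0.193 CPM per kb, which was above PLIN4 in all 24 libraries although their ranges overlapped. PLIN4 had 0.247 ± 0.104 CPM per kb. The genes other than DGAT2 span 1329 exon bases (ABHD5) to 6193 (PLIN4). Counts do not show how reads lie along a gene, so a bias of these levels with length was not tested. The study ascribes the average RNA quality number of its samples to pre-spliced RNA. The level of DGAT2, 1.04 ± 0.800 CPM per kb, rests on 62 reads over all libraries and on an annotation with 336 exon bases, and 18 libraries had 3 reads or fewer. Its place in the order is therefore not known. It was tested only in an alternative fit with no filter on low counts, where no contrast gave it an unadjusted p under 0.05.

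**Figure D1:**
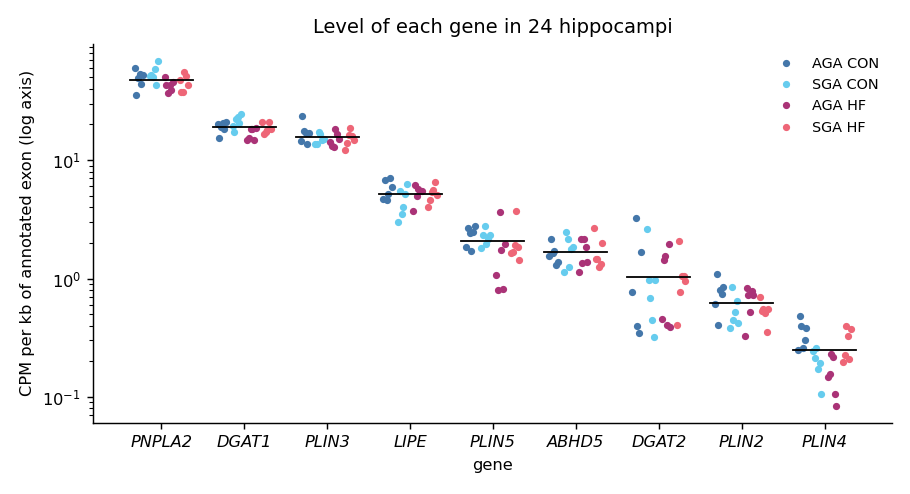
Level of the 9 genes in CPM per kb of annotated exon (log axis), with 1 point per piglet coloured by group and a line at the mean of 24 libraries. Levels fall from 47.9 CPM per kb for PNPLA2 to 0.247 for PLIN4, and 1 library with 0 reads of DGAT2 is not drawn.

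Several markers of the hippocampus and of its glia were abundant in these libraries. NRGN, a synaptic protein of excitatory neurons, had 2439 ± 405 CPM (SD, n = 24), GFAP of astrocytes had 8236 ± 1099 CPM and MBP of myelin had 6597 ± 1506 CPM. PROX1, a transcription factor of dentate granule cells, had a mean of 48.2 CPM. In the same list of hippocampal excitatory neuron markers, NEUROD2 had 480 CPM and FIBCD1 140 CPM. WFS1 had only 3.77 CPM, ZBTB20 had 6 reads in all libraries, and NEUROD6 and SPINK8 were not found by name. Several members of the family are best known from fat tissue. Of its markers, ADIPOQ and LGALS12 had 0 reads in all libraries and LEP had 3 reads in all, but PLIN1, the perilipin of adipocytes, had 352 reads and a mean of 1.97 CPM. The 7 adipocyte markers found by name summed to 6.60 to 15.6 CPM per library, most of it from CFD (8.91 ± 2.39 CPM). In bulk tissue, fewer cells of a type and less RNA per cell cannot be told apart.

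Several libraries stood apart on these markers. AGA CON replicate 2 had the lowest sum of neuron markers, 4286 CPM against 5299 to 10530 CPM in the other libraries, and the highest sums of endothelial (371.6 CPM, next 300.2) and microglia markers (252.3 CPM, next 222.6). In its group it had the highest PLIN2, PLIN3, PLIN4 and ABHD5 and the lowest DGAT1, PNPLA2 and DGAT2. Without it, the AGA CON means were 1.97 ± 0.424 CPM for PLIN4, 22.0 ± 2.38 for PLIN3, 1.59 ± 0.410 for PLIN2, 2.01 ± 0.222 for ABHD5, 38.6 ± 2.23 for DGAT1 and 87.4 ± 9.92 for PNPLA2 (SD, n = 5). SGA HF replicate 4 had pituitary markers at 369 CPM, against at most 37.0 CPM elsewhere, and the highest PLIN5, PLIN3 and PNPLA2 and the lowest ABHD5 of its group. Without it, the SGA HF means were 2.40 ± 0.263 CPM for PLIN5, 20.2 ± 2.22 for PLIN3, 72.95 ± 9.996 for PNPLA2 and 2.37 ± 0.744 for ABHD5 (SD, n = 5). SGA CON replicate 1 had choroid plexus markers at 156.1 CPM, against at most 60.25 CPM elsewhere. In its group it had the lowest PLIN2, PLIN3, PLIN5, ABHD5 and LIPE and the highest DGAT2. Without it, the SGA CON means were 1.34 ± 0.406 CPM for PLIN2, 21.3 ± 1.96 for PLIN3, 3.25 ± 0.441 for PLIN5, 2.54 ± 0.605 for ABHD5, 19.7 ± 4.49 for LIPE and 0.230 ± 0.101 for DGAT2 (SD, n = 5). The fitted interaction of PLIN4 was 1.49 (standard error 0.402) without the litter of AGA CON replicate 2, 1.57 (standard error 0.42) without that of SGA HF replicate 4 and 1.80 (standard error 0.425) without that of SGA CON replicate 1. The litter of SGA HF replicate 4 also holds AGA HF replicate 4. That library had neuron markers at 5299 CPM, where all others but AGA CON replicate 2 had at least 7385 CPM. It also had the highest sums of astrocyte (14610 CPM) and oligodendrocyte progenitor markers (1377 CPM), and the highest PLIN3 of its group, 25.19 CPM. The part of the cell types in these libraries was not tested.

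PLIN4, a perilipin best known from adipose tissue and muscle, was lower in the SGA than in the AGA piglet of every CON litter and higher in the SGA piglet of every HF litter. On the CON diet, the AGA piglets of replicates 1 to 6 had 1.55, 3.01, 2.44, 1.59, 1.86 and 2.38 CPM. Their SGA littermates had 1.51, 1.31, 1.62, 1.06, 1.19 and 0.658 CPM in the same order. Replicate 1 was nearly level, with 12 reads in each littermate, and replicate 6 differed most, with 17 reads in the AGA and 4 in the SGA piglet. The groups overlapped only in that the highest SGA value, of replicate 3, exceeded the 2 lowest AGA values.

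On the HF diet, the AGA piglets of replicates 1 to 6 had 0.910, 0.960, 1.42, 1.35, 0.659 and 0.524 CPM of PLIN4. Their SGA littermates had 1.23, 1.39, 2.45, 2.02, 1.29 and 2.34 CPM. Here the SGA piglets were the higher of every pair, and the groups overlapped in the range between 1.23 and 1.42 CPM. The largest difference was again in a replicate 6, which had 4 reads in the AGA and 22 in the SGA piglet. As a ratio of CPM, the SGA piglet had 0.276 to 0.974 of the level of its littermate in CON litters, and 1.35 to 4.475 times that level in HF litters.

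**Figure D2:**
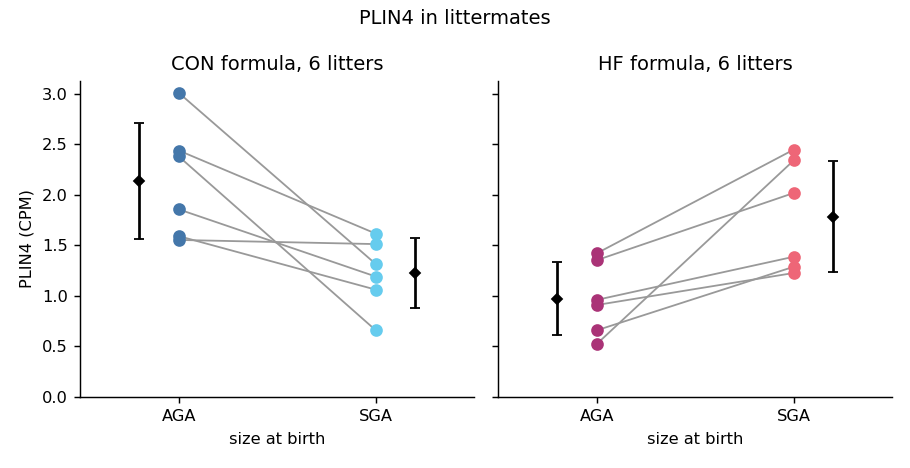
PLIN4 in CPM for AGA and SGA piglets on each formula, with 1 line per litter and the mean ± SD of 6 piglets at the side. All 6 lines fall from AGA to SGA on CON (replicate 1 nearly level) and all 6 rise on HF, and AGA HF has the lowest mean, 0.972 CPM.

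The mean littermate difference of PLIN4 was -0.69 ± 0.52 log2 CPM for CON and 0.74 ± 0.51 for HF litters (SD, n = 6 each). Among all genes tested, the SGA piglet was lower in all 6 litters on the CON diet for 2.88% and higher in all 6 litters on the HF diet for 2.52%. Both held for 0.0306%, which is 5 genes: PLIN4, FAM186B, XRRA1, UNK and gene 100737379. The counts of litters restate the choice of PLIN4.

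The fitted interaction of PLIN4, the size difference on HF minus that on CON with sex and 5 surrogate variables in the model, was 1.56 on the log2 scale (standard error 0.376). The fitted size difference was -0.50 (standard error 0.27) for CON and 1.07 (standard error 0.286) for HF. The difference of HF from CON piglets was -1.14 (standard error 0.285) among AGA and 0.42 (standard error 0.271) among SGA piglets. AGA CON piglets ranged from 1.55 to 3.01 CPM and AGA HF piglets from 0.524 to 1.42 CPM. Averaged over the diets the size difference was 0.29 (standard error 0.205), and averaged over the sizes the diet difference was -0.36 (standard error 0.212). Opposite differences, for which the gene was chosen, average towards 0, so nothing is read from these means.

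The precision of these values is set by few reads. PLIN4 had 4 to 22 reads per library and 280 in all. Pooling the 6 libraries of a group, 95 reads gave 2.11 CPM in AGA CON (exact Poisson interval 1.71 to 2.58) and 56 reads gave 1.26 CPM in SGA CON (0.948 to 1.63). In AGA HF, 41 reads gave 0.984 CPM (0.706 to 1.34), and in SGA HF, 88 reads gave 1.81 CPM (1.45 to 2.23). These intervals cover counting error only. Over all tested genes the spread between piglets beyond counting corresponded to a coefficient of variation of 0.117.

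In cohort 1 AGA piglets averaged 2.34 CPM and SGA piglets 1.48 CPM on CON, and 1.10 and 1.69 CPM on HF (n = 3 each). In cohort 2 they averaged 1.94 and 0.970 CPM on CON, and 0.846 and 1.89 CPM on HF. Because all litters of a diet had 1 direction, a split by cohort could not show another one.

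Within 100 kb of PLIN4 lay 7 other tested genes, and none had an interaction at an unadjusted p under 0.05. HDGFL2, a chromatin reader on the minus strand, shares 4 bases with the end of PLIN4 and had 128 reads for each PLIN4 read. Reads were counted by strand, and the interaction of HDGFL2 was 0.00 (standard error 0.086). PLIN5, upstream of PLIN4, had an interaction of 0.09 (standard error 0.394). Over 24 settings it lay between -0.12 and 0.68, and it was at an unadjusted p under 0.05 in 0 of them. LRG1, a secreted glycoprotein gene, had a log2 size difference of 0.61 (standard error 0.263) on CON and 0.77 (standard error 0.287) on HF, each at an unadjusted p under 0.05. UBXN6, an adaptor of the VCP segregase, had -0.18 (standard error 0.072) and -0.21 (standard error 0.074), again at an unadjusted p under 0.05. UHRF1, CHAF1A and SH3GL1 had interactions of 0.07, -0.10 and 0.05. Of the remaining loci in the window, gene 102161376 had 0 reads and LOC106509455 had a mean of 0.011 CPM, and neither was tested.

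Among 11694 genes with a symbol and a mean of at least 1 CPM, those whose log2 CPM followed PLIN4 most closely over the 24 libraries were TG (Pearson r = 0.78), NME9 (0.74), SUN2 (0.72), SMARCD2 (0.71) and TNNI3 (0.71). TG, the thyroglobulin gene, averaged 3.02 CPM in AGA and 2.36 CPM in SGA piglets on CON, and 1.85 and 2.55 CPM on HF. After removing group means, the closest were ACADL (0.83), a dehydrogenase of long-chain fatty acid oxidation, SOX2 (0.79), CREBZF (0.78), KIF23 (0.76) and PYGL (0.75). These correlations describe libraries that share depth and litter. ACADL itself had nearly equal group means, between 49.4 and 51.7 CPM.

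Of the 15 marker lists, 1 came near the litter pattern of PLIN4. The 8 astrocyte markers together were lower in the SGA piglet in 6 of 6 CON litters and higher in 5 of 6 HF litters. Their sum was 11950 ± 1537 CPM in AGA and 10540 ± 655 CPM in SGA piglets on CON, and 10840 ± 2019 and 10830 ± 629.9 CPM on HF (SD, n = 6). The near-equal HF means include AGA replicate 4 at 14610 CPM, while the other 5 AGA HF piglets lay between 9084 and 11510 CPM. On CON, AGA replicate 2 had 14560 CPM and the other 5 AGA piglets 9976 to 12310 CPM. GFAP made up most of the sum, with 9027 and 7789 CPM on CON and 7969 and 8160 CPM on HF, and had the same litter counts as the sum. The other 7 markers were lower in 1 to 5 CON litters and higher in 0 to 4 HF litters. By group means, GFAP and 3 of these 7 were lower in SGA piglets on CON and higher on HF, as PLIN4 was. AQP4, the astrocyte water channel, averaged 14.4 CPM in AGA and 11.4 CPM in SGA piglets on CON, and 12.4 and 14.6 CPM on HF. ALDH1L1 had 27.7 and 24.3 CPM on CON, and 25.6 and 28.0 CPM on HF. SLC1A3, a glutamate transporter, had 75.1 and 69.3 CPM on CON, and 64.4 and 74.8 CPM on HF. The other 4 had means of another order. S100B had 1255 and 1129 CPM on CON, and 1244 and 1073 CPM on HF. SLC1A2, a second glutamate transporter, had 907.3 and 831.3 CPM on CON, and 910.5 and 850.9 CPM on HF. GJA1, a gap junction protein, had 215.7 and 183.8 CPM on CON, and 204.6 and 202.6 CPM on HF, and AGT, which encodes angiotensinogen, had 430.3 and 502.6 CPM on CON, and 409.9 and 422.3 CPM on HF. No astrocyte marker was at 0. The part of astrocytes in the PLIN4 values was not tested.

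By group means, 0 of the 15 lists had a sum that was lower in SGA than in AGA piglets on CON and higher on HF. The adipocyte markers summed to 12.2 ± 2.32 CPM in AGA and 11.3 ± 3.55 CPM in SGA piglets on CON, and to 11.7 ± 2.32 and 10.4 ± 2.36 CPM on HF (SD, n = 6). Muscle markers, led by ACTA1 (14.2 CPM), summed to 32.3, 33.2, 31.5 and 33.0 CPM in the same order. Ependymal markers, led by FOXJ1 (65.1 CPM), summed to 71.6, 80.8, 62.3 and 89.9 CPM, so they were higher in SGA piglets on both diets. The part of ependymal cells in the HF difference of PLIN4 was not tested.

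Apart from PLIN4, 0 of the 7 tested members were called in the main effects of size and of diet at an FDR under 0.4 (edgeR's quasi-likelihood test), the threshold that the study names for its heat map of genes. The background was low as well, with 0.478% of all genes called for size and 0.159% for diet. At an unadjusted p under 0.05 there were 0 of 7 for size and 1 of 7, DGAT1, for diet, against 10.6% and 7.09% of all genes. PLIN4 is left out of every count here. In the interaction 0.049% of all genes were called (4.01% at an unadjusted p under 0.05), and for diet in AGA piglets 0.0674% (6.09%). For size on CON the shares were 0.129% (6.59%), for size on HF 0.288% (8.02%) and for diet in SGA piglets 0.0919% (5.16%). In these 5 contrasts 0 of the 7 members were called and 0 of 7 reached an unadjusted p under 0.05. With litters as fixed blocks, DGAT1 and LIPE did so for size (2 of 7, against 12.4% of all genes). LIPE also did so for size on CON (8.64%) and in the interaction (3.73%), with 0 of 7 for size on HF (8.13%). With litter as a random block, DGAT1 and PLIN2 did so for size (12.4%) and LIPE for size on CON (7.96%). There 0 of 7 did so in the interaction (3.77%), for size on HF (8.68%) or for diet in AGA piglets (4.04%). For diet that fit had DGAT1 and PNPLA2 (3.65%), and for diet in SGA piglets PNPLA2 (3.16%).

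**Figure D3:**
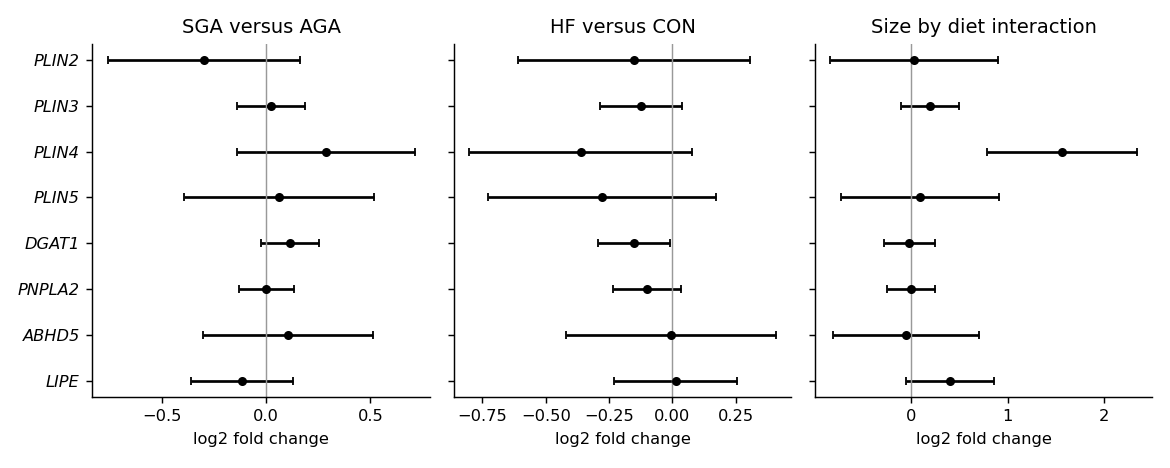
Fitted log2 fold changes of the 8 tested genes with 95% intervals, for the main effects of size and diet and for their interaction, from edgeR with sex and 5 surrogate variables. Apart from PLIN4, whose values chose the family and are not read as a test, the diet interval of DGAT1 is the only one that leaves out 0.

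PLIN2, the perilipin found in most cell types and a common marker of droplet load, had a lower mean in SGA than in AGA piglets on both diets. In AGA CON piglets it ranged from 0.949 to 2.56 CPM (median 1.80) and in SGA CON piglets from 0.883 to 1.97 (median 1.13). On HF, AGA piglets ranged from 0.758 to 1.92 CPM (median 1.69), and SGA piglets lay between 0.821 and 1.64 CPM (median 1.26). All 4 groups overlapped. The SGA piglet was the lower of the pair in 10 of 12 litters, and 4.86% of all genes were lower in at least 10. The exceptions were CON replicate 3 and HF replicate 1. Its log2 fold change for size was -0.30 (standard error 0.222, 95% interval -0.76 to 0.16, FDR = 0.853), and it had 5 to 17 reads per library. Over 24 settings the size effect lay between -0.53 and -0.19. It was at an unadjusted p under 0.05 in 1 of them, with litter as a random block, where 12.4% of all genes were. For diet the log2 fold change of PLIN2 was -0.15 (standard error 0.221).

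PLIN3, a perilipin that moves between the cytosol and young droplets, was the most abundant coat gene. It had 23.8 ± 4.90 CPM in AGA and 20.9 ± 2.01 CPM in SGA piglets on CON, and 20.8 ± 2.90 and 21.1 ± 2.95 CPM on HF (SD, n = 6). The AGA CON mean was raised by 1 piglet at 32.8 CPM, and the groups overlapped. In AGA piglets the log2 fold change for diet was -0.22 (standard error 0.108, FDR = 0.743), and without the litter of that piglet, CON replicate 2, it was -0.10 (standard error 0.105). This difference was at an unadjusted p under 0.05 in 4 of 23 settings, which are the fit given here and its alternatives with another filter, normalization, test, set of covariates or samples. In SGA piglets it was -0.03 (standard error 0.105), and the interaction was 0.19 (standard error 0.146, FDR = 0.854).

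PLIN5, which ties droplets to mitochondria in oxidative tissues, varied most among the HF piglets. Its values ran from 2.39 to 3.92 CPM (median 3.44) in AGA CON and from 2.52 to 3.93 (median 3.16) in SGA CON. On HF, AGA piglets had 1.12 to 5.17 CPM (median 1.98), while SGA piglets had 2.03 to 5.23 CPM (median 2.47). Single piglets, AGA HF replicate 3 and SGA HF replicate 4, held the upper ends of the HF groups. The log2 fold change for diet was -0.28 (standard error 0.217, 95% interval -0.73 to 0.17, FDR = 0.863). Without the litter of HF replicate 3 it was -0.52 (FDR = 0.318), past the threshold, but 4.66% of all genes were called for diet in that fit, against 0.159% with all litters. The size effect was 0.06 (standard error 0.219), and it lay between -0.01 and 0.32 with single litters left out. The size difference on HF then lay between -0.06 and 0.64. It was at an unadjusted p under 0.05 only without HF replicate 3, where 13.2% of all genes were.

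**Figure D4:**
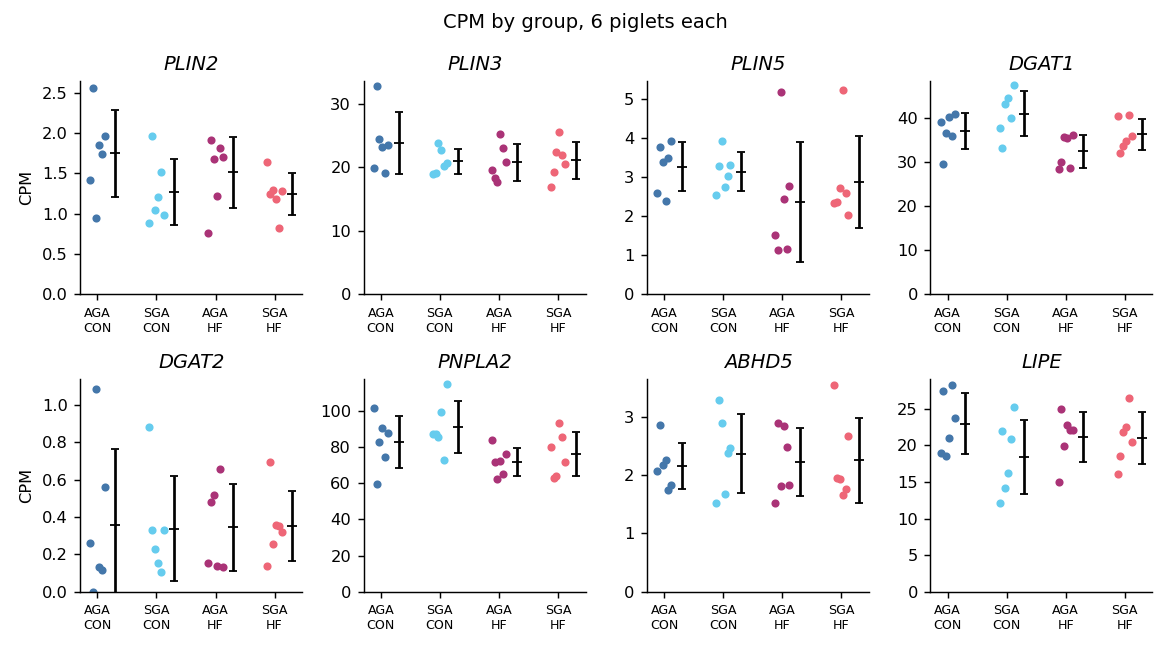
CPM of the 8 genes other than PLIN4, with 1 point per piglet and the mean ± SD of each group of 6 at the side of the points (bars of DGAT2 are drawn from 0 upward). All groups overlap for PLIN2, PLIN3, LIPE, ABHD5 and PNPLA2, and the 2 highest PLIN5 values, 5.17 and 5.23 CPM, are single HF piglets.

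DGAT1, the endoplasmic reticulum enzyme that esterifies incoming fatty acids, had the lowest mean in AGA HF and the highest in SGA CON piglets. In AGA CON piglets it ranged from 29.7 to 41.0 CPM (median 37.98) and in SGA CON piglets from 33.3 to 47.5 (median 41.6). On HF, AGA piglets ranged from 28.5 to 36.3 CPM (median 32.7), and SGA piglets lay between 32.2 and 40.8 CPM (median 35.4). The groups overlapped. Its log2 fold change for diet was -0.15 (standard error 0.068, 95% interval -0.30 to -0.01, unadjusted p = 0.036, n = 24 libraries), and it failed the adjustment over all genes (FDR = 0.704). Within AGA piglets the diet difference was -0.14 (standard error 0.094) and within SGA piglets -0.16 (standard error 0.091), and the interaction was -0.02 (standard error 0.125). Without the litter of CON replicate 2 the diet difference was -0.25 (FDR = 0.270), and without that of HF replicate 3 it was -0.20 (FDR = 0.309), past the threshold in both. These fits called 1.46% and 4.66% of all genes for diet, so calls rose far beyond DGAT1. Without the litter of HF replicate 4 it was -0.10 (standard error 0.077), and it was also not at an unadjusted p under 0.05 without CON replicate 4 or 6 or in cohort 1 alone. Over the 23 settings with a diet contrast it lay between -0.25 and -0.10 and was at that level in 19. The SGA piglet was higher in 8 of 12 litters, and the size effect was 0.12 (standard error 0.067, FDR = 0.789), at an unadjusted p under 0.05 in 10 of 24 settings.

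DGAT2, the enzyme tied to fatty acids made in the cell, had 0 to 8 reads per library. It averaged 0.359 ± 0.404 CPM in AGA and 0.338 ± 0.281 CPM in SGA piglets on CON, and 0.346 ± 0.234 and 0.353 ± 0.186 CPM on HF (SD, n = 6). A difference between groups was not detectable at this depth. SGA CON replicate 1 had 0.883 CPM, against 0.108 to 0.329 in the rest of its group, and is the library with the high choroid plexus markers.

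PNPLA2, the most abundant member, had 82.8 ± 14.5 CPM in AGA and 91.1 ± 14.4 CPM in SGA piglets on CON, and 71.9 ± 7.75 and 76.3 ± 12.2 CPM on HF (SD, n = 6). The size effect was 0.00 (standard error 0.063, 95% interval -0.13 to 0.13). With litters as blocks it was 0.11 (standard error 0.07, FDR = 0.734), so the estimate depended on the fit. The diet effect was -0.10 (standard error 0.064, 95% interval -0.23 to 0.03, FDR = 0.82), and it depended on the fit. Over 23 settings it lay between -0.24 and -0.06, and in 10 of them it was at an unadjusted p under 0.05 but in none past the FDR threshold. These 10 were the fits with no filter, with sex alone, with sex and cohort and with litter as a random block, cohort 1 alone, and those without CON replicate 2 or 5 or HF replicate 1, 3 or 4. Without CON replicate 2 the diet effect was -0.21 (standard error 0.072) and without HF replicate 4 it was -0.18 (standard error 0.073). Its own littermates showed no common direction, with the SGA piglet higher in 7 of 12 litters. The genes nearest to it over the 24 libraries were GAS2L1 (Pearson r = 0.88), PANX2 (0.86), a pannexin channel subunit of neurons, and LRFN1 (0.86), a synaptic adhesion protein.

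ABHD5, the activator of PNPLA2, had 2.15 ± 0.400 CPM in AGA and 2.37 ± 0.684 CPM in SGA piglets on CON, and 2.23 ± 0.583 and 2.25 ± 0.725 CPM on HF. With 10 to 26 reads per library, its intervals were wide. The size effect was 0.11 (95% interval -0.30 to 0.51) and the diet effect -0.01 (95% interval -0.42 to 0.41).

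LIPE had its lowest mean in SGA CON piglets. AGA CON piglets ranged from 18.6 to 28.3 CPM (median 22.4) and SGA CON piglets from 12.1 to 25.3 (median 18.6). AGA HF piglets ranged from 15.01 to 24.97 CPM (median 22.1) and SGA HF piglets from 16.1 to 26.5 (median 21.1). The groups overlapped, but by litter the SGA piglet was lower in 5 of 6 on the CON diet, where 13.2% of all genes were lower in at least 5. The exception was replicate 6, with 25.3 against 23.8 CPM. On the HF diet it was lower in 3 of 6 litters. The log2 fold change for size on CON was -0.32 (standard error 0.163, FDR = 0.759) and on HF 0.09 (standard error 0.161). Over 24 settings the difference on CON lay between -0.44 and -0.23 and was at an unadjusted p under 0.05 in 12. The interaction was 0.40 (standard error 0.221, FDR = 0.779). With the litters as blocks in place of sex and surrogate variables, the size difference on CON was -0.34 (standard error 0.107), just short of the threshold (FDR = 0.403), which 1.26% of all genes passed in that fit. Without the litter of HF replicate 3 it was -0.39 (FDR = 0.338), past the threshold, in a fit that called 2.84% of all genes for size on CON.

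The genes nearest to LIPE over the 24 libraries were EPOR (Pearson r = 0.84), SEPT4 (0.78), a septin of myelin, and FDPS (0.77), an enzyme of cholesterol synthesis. The 8 oligodendrocyte markers, led by MBP, summed to 21260 ± 2444 CPM in AGA and 16150 ± 2269 CPM in SGA piglets on CON, and to 20950 ± 4420 and 17920 ± 3718 CPM on HF (SD, n = 6). The sum was lower in the SGA piglet in 6 of 6 litters on CON and 5 of 6 on HF, and 3 of the 8 genes had an unadjusted p under 0.05 for size, against 10.6% of all genes. Sums of astrocyte and of oligodendrocyte progenitor markers were also lower in the SGA piglet in 6 of 6 CON litters. The part of these cells in the LIPE values was not tested.

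**Figure D5:**
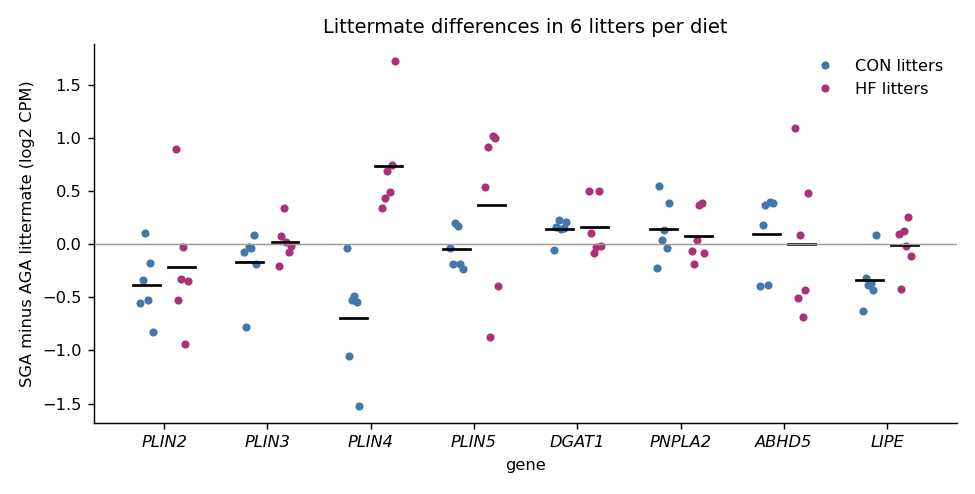
SGA minus AGA difference in log2 CPM (prior count 2) for 8 genes, with 1 point per litter and a line at the mean of 6 litters per diet. PLIN4 is the one gene with all CON litters below 0 and all HF litters above it, and LIPE has 5 of 6 CON litters below 0.

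Around these genes, 6 lists covering droplet coats, triglyceride synthesis, lipolysis, fatty acid handling, and PPAR and glucocorticoid receptors with their targets held 79 tested genes. None of the 79 was called at an FDR under 0.4 in any contrast (edgeR). At an unadjusted p under 0.05 they numbered 9 for size, 7 higher and 2 lower in SGA piglets, and 9 for diet, 1 higher and 8 lower on HF. That is 11.4% in each, against 10.6% and 7.09% of all genes. In the interaction there were 4 (5.06%, against 4.01% of all genes). For size on CON there were 3 (3.8%, against 6.59%) and on HF 9 (11.4%, against 8.02%). With litters as blocks the list genes at an unadjusted p under 0.05 were 14 for size over both diets, 9 for size on CON and 9 for size on HF, in a fit where 12.4%, 8.64% and 8.13% of all genes were at that level. AUP1, SLC27A4 and FGF21 for size, and BSCL2, ABHD4 and PPARD in the interaction, were under that level in the fit with sex and surrogate variables but not with litters as blocks. The median log2 fold change over the 79 was -0.02 for size, -0.04 for diet and 0.02 for the interaction.

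Of 12 tested genes of droplet coat and growth, 1 was higher for size, 2 were lower for diet and 1 was higher in the interaction at an unadjusted p under 0.05. HILPDA, an inhibitor of PNPLA2, had a log2 fold change of -0.29 for diet (standard error 0.126, FDR = 0.684), and its interaction was -0.29 (standard error 0.238). RAB7A, a small GTPase of late endosomes, had -0.08 for diet (FDR = 0.713). AUP1, a droplet protein of the ubiquitin pathway, had 0.09 for size (FDR = 0.654) and FAF2 had 0.15 (FDR = 0.816). BSCL2, which encodes seipin and shapes new droplets, had an interaction of 0.23 (standard error 0.09, FDR = 0.652). It averaged 327 CPM in AGA and 312 CPM in SGA piglets on CON, and 312 and 329 CPM on HF.

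Of 12 tested genes of triglyceride and sterol ester synthesis, 0 passed an unadjusted p under 0.05 for size or in the interaction and 1 was lower for diet. GPAM, which starts glycerolipid synthesis at mitochondria, had -0.17 for diet (standard error 0.056, FDR = 0.56). AGPAT1 had -0.06 (FDR = 0.822). MOGAT1 had -0.94 for size (standard error 0.473, FDR = 0.75) and GPAT4 -0.09 (FDR = 0.796). The smallest p values in the interaction were those of LPIN3 (0.41, FDR = 0.845) and GPAM (-0.11, FDR = 0.893). With litters as blocks, MOGAT1 (-0.94), GPAT4 (-0.15), AGPAT2 (-0.17) and AGPAT4 (-0.13) had an unadjusted p under 0.05 for size, all lower in SGA piglets and none past the FDR threshold.

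Of 13 tested genes of lipolysis and its control, 1 was higher for size, 1 lower for diet and 1 higher in the interaction at that threshold. PRKACA, a catalytic subunit of the protein kinase A that phosphorylates perilipins and LIPE, had the smallest p for size and for diet. It was 0.12 for size (standard error 0.038, FDR = 0.506) and -0.10 for diet (standard error 0.038, FDR = 0.611). ABHD4, a relative of ABHD5, had an interaction of 0.33 (standard error 0.122, FDR = 0.62). PRKACA had an interaction of 0.11 (FDR = 0.822), ABHD12 had -0.10 for size (FDR = 0.747) and ADRB1, a receptor for noradrenaline, had -0.35 for diet (FDR = 0.781).

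Of 14 tested genes of fatty acid uptake, binding and activation, 1 was higher and 1 lower for size, 1 lower for diet and 1 lower in the interaction. SLC27A4, a fatty acid transporter, had -0.19 for size (standard error 0.073, FDR = 0.642). ACSL4, which activates arachidonic acid, had 0.16 for size (standard error 0.061, FDR = 0.642). With litters as blocks, ACSL4 was the single list gene past the FDR threshold for size, at 0.21 (standard error 0.059, FDR = 0.319), in a fit that called 2.57% of all genes. FABP7, the fatty acid binding protein of radial glia and astrocytes, had -0.18 for diet (standard error 0.062, FDR = 0.585), and ACSL5 had 0.62 (FDR = 0.782). ACBD5 had an interaction of -0.23 (FDR = 0.676) and SLC27A1 of 0.17 (FDR = 0.794).

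In a list of PPAR receptors and PPAR-regulated genes, 15 were tested. Of these, 1 was higher and 1 lower both for size and for diet, and 1 was higher in the interaction. PDK4, which slows glucose oxidation, had -0.34 for diet (standard error 0.102, FDR = 0.49), and UCP2 had 0.26 (FDR = 0.716). PPARD, the most general of the PPAR receptors, had 0.13 for size (standard error 0.041, FDR = 0.528) and an interaction of 0.17 (FDR = 0.714). FGF21 had -0.59 for size (FDR = 0.659) and ACADVL an interaction of 0.24 (FDR = 0.773). In a list of glucocorticoid-induced genes and the receptors NR3C1 and NR3C2, 13 were tested. Of these, 3 were higher for size and 2 lower for diet, and 0 passed in the interaction. PER1 had the smallest p of all list genes in the diet effect, at -0.22 (standard error 0.06, FDR = 0.428), and 0.16 for size (FDR = 0.629). KLF9 had -0.45 for diet (FDR = 0.683) and 0.48 for size (FDR = 0.666). SGK1 and NR3C2 had interactions of 0.20 (FDR = 0.791) and -1.01 (FDR = 0.838).

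The closest genes to the remaining members over the 24 libraries were MMS19, HYOU1 and LSM14B for DGAT1 (Pearson r = 0.81, 0.81 and 0.79). For PLIN3 they were IRF3, PLOD3 and GATM (0.78, 0.75 and 0.74), and for PLIN5 ZBTB47, TMEM135 and AK7 (0.78, 0.76 and 0.76). For PLIN2 they were FAM71F1, KHNYN and SERPINB1 (0.69, 0.66 and 0.66), and for ABHD5 FYB, THBS3 and CEP350 (0.72, 0.68 and 0.64). HYOU1, a chaperone of the endoplasmic reticulum, averaged 329.9 CPM in AGA and 361.9 CPM in SGA piglets on CON, and 293.3 and 329.2 CPM on HF. Its groups thus had the order SGA CON, AGA CON, SGA HF, AGA HF, as for DGAT1 and MMS19. LSM14B had another order, with 42.5 and 43.2 CPM on CON, and 36.9 and 42.9 CPM on HF. All of these genes were picked for their likeness to DGAT1, so a shared order adds nothing to the correlation.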

How the data were processed

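The authors trimmed single-end reads (Trimmomatic 0.33), aligned them to Sscrofa10.2 with STAR 2.5.2a and counted reads on exons by strand with featureCounts of Subread 1.5.0. They deposited the counts without normalization, as 1 value per gene and library. An entry without an identifier, 0.613 to 1.62% of reads, was left out. Symbols came from a table of Sscrofa11.1 matched on gene identifiers, which paired 23036 of 38882 genes. Chromosome numbers are those of most genes on each sequence in that table.

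Counts were scaled by TMM and genes that reached 1 CPM in 3 or more libraries were kept. These were fitted with edgeR 4.0.16 (glmQLFit, glmQLFTest; R 4.3.3) on the 4 groups, sex and 5 surrogate variables (sva 3.50.0, estimated from log2 CPM, prior count 2). The study used limma voom, which was run as an alternative (limma 3.58.1), as was DESeq2 1.42.0. Benjamini-Hochberg FDR covered 7 contrasts together over all genes, with a threshold of 0.4. Standard errors follow from the test statistic, or from p where edgeR raised a p under 0.5. The fit was checked on simulated counts. Alternatives were another scaling, filter, covariate set or tool, litter blocks, single cohorts, an FDR per contrast and leaving out each litter.

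The labels name the littermate pairs. Deviations of littermates from group means had a mean correlation of 0.154 (0.0144 to 0.329 over 12 pairs), against -0.031 between other SGA and AGA piglets of a diet. Libraries are separate piglets.

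The 9 genes, the 6 pathway lists and the 15 marker lists were chosen with earlier results of these data known. Named genes are all members, of each list the 2 with the smallest p in the interaction and in each main effect, genes within 100 kb of PLIN4, the nearest 5 genes to PLIN4 by each of 2 measures and the nearest 3 to other tested members, and the top gene of a marker list. LRG1 and the other neighbours fall under this rule. Block results, TMM group values of ACADL, HYOU1, MMS19, LSM14B and TG, and the single astrocyte markers were added once their values had been seen. So were PROX1, the other hippocampal neuron markers, ADIPOQ, LEP, LGALS12 and PLIN1.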

Additional observations from a re-analysis of the deposited data

Results flagged for a closer look

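PLIN5 in SGA HF replicate 4 had 5.23 CPM and stood apart from the other 5 piglets of its group (2.03 to 2.71 CPM). The same library carried the pituitary markers at a sum of 369 CPM, where no other library exceeded 37.0 CPM, and the part of that tissue in PLIN5 was not tested. DGAT2 in SGA CON replicate 1 had 0.883 CPM, apart from the other 5 (0.108 to 0.329 CPM), on few reads. The same library had the choroid plexus markers at 156.1 CPM, where no other exceeded 60.25 CPM, and the part of that tissue in DGAT2 was not tested. These were 2 of 36 groups looked at, and chance sets a sample apart in about 1 group of 20. For PLIN4, every SGA piglet was below its littermate on CON and above it on HF, and the mean littermate difference on HF minus that on CON was 1.43 log2 CPM. This difference was not tested, because it chose the gene.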

How the results depend on the processing

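Over 25 settings the interaction of PLIN4 lay between 1.23 and 2.16, its size difference between -0.99 and -0.38 on CON and between 0.59 and 1.17 on HF. All 12 litters have the sign that chose the gene, so these ranges and the following counts for the interaction, size on HF and diet in AGA piglets, where PLIN4 is the member counted unless others are named, are a description and support nothing. Members called in the interaction numbered 1 in 12 of the 25 settings, over which 0 to 2.05% of all genes were called. The count went from 1 to 0 for the interaction and for diet in AGA piglets with at least 6 libraries at 1 CPM, with DESeq2, with limma voom, with sex alone, with litter as a random block, in cohort 1 or cohort 2 alone, and with the FDR over each contrast alone, which also raised the count for size on HF from 0 to 1. With the replicate block of litters as fixed terms, the interaction count was 1, no other count of members changed, and the size difference of PLIN4 on CON was -0.77 in place of -0.50. Litters are nested in diet, so this fit gives no diet contrast. Leaving out each litter in turn gave 0 to 1 in the interaction, 0 to 3 for diet in AGA piglets, 0 to 2 for diet, 0 to 1 for size on CON and 0 to 1 for size on HF. Calls over all genes moved widely in these fits. They were 0.0184 to 2.05% in the interaction, 0.0369 to 4.55% for diet in AGA piglets and 0.0307 to 4.66% for diet. For size they were 0.043 to 2.84% on CON and 0.0184 to 6.82% on HF. The interaction count was 0 without CON replicates 3 or 5 and without HF replicates 4, 5 or 6. For diet in AGA piglets it was 0 without CON replicates 1, 3 or 5 and without HF replicates 1, 2, 4, 5 or 6, and 3 without HF replicate 3, where DGAT1 (-0.24, FDR = 0.395) and PLIN5 (-0.85, FDR = 0.244) joined PLIN4 and 4.55% of all genes were called, against 0.0674% with all litters. For size on HF it was 1, PLIN4, without CON replicates 2, 4 or 6 and without HF replicate 3. The cause was not tested, though cohort and leave-one-out fits use fewer piglets.

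Of 1320 values of members under an alternative, 6 passed the threshold anew in members other than PLIN4. The size difference of PLIN4 on HF was also under it in 5 of 25 settings, but that difference chose the gene, so this count supports nothing. Those 5 settings called 1.11 to 6.82% of all genes for size on HF, against 0.288% in the main fit. Another 6 values reversed, and 126 more changed sign from an estimate within 1 standard error of 0. The reversed ones were small: in cohort 2 alone PLIN3 had 0.083 for diet, -0.025 for size on HF and 0.070 for diet in AGA piglets. Without HF replicate 3, PLIN3 had -0.016 for size on HF (-0.016 to 0.195 over litters left out). In cohort 1 alone PLIN4 had -0.0225 for the main effect of size. LIPE for diet in AGA piglets had 0.010 without CON replicate 2 (-0.343 to 0.010 over litters left out). List genes at an unadjusted p under 0.05 went from 9 to 2 for diet and from 4 to 1 for the interaction with sex alone, where all genes at that level fell from 1158 to 866 and from 654 to 486, and from 4 to 2 for the interaction with litter blocks. At 4 to 22 reads per library, PLIN4 is limited by depth, and DGAT2 more so.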
